A study of Macaca fascicularis with 64 samples.

Results

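The genes described here act in the first steps of the secretory pathway, from the entry of new proteins into the endoplasmic reticulum (ER) to their transport to the Golgi. All genes were taken whose symbol begins with SEC and a digit, TMED, SAR1, SSR and a digit, COPA, COPB, COPE, COPG or COPZ, which gave 49 of the 21041 macaque genes in the files. By role they fall into 4 genes of the translocon, 4 of the TRAP complex, 2 of the signal peptidase, 14 of the COPII coat and its exit sites, 8 of the COPI coat, 9 of the p24 family, 3 SEC22 genes of the SNARE group, and 5 SEC14-like genes. The SEC14-like genes encode lipid-binding proteins, so they share the symbol rather than the transport step. The p24 and SEC22 groups were also formed by symbol, so a gene in them need not have the role of its group. SEC61B, SEC63 and TMED6 were not analysed here.

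Single islet cells came from 16 non-diabetic cynomolgus monkeys (Macaca fascicularis), 8 young and 8 old, with 4 females and 4 males of each age and no treatment or genetic change in either group. Islets of the pancreas tail were hand-picked and dissociated, debris was removed by sorting, and cells were picked by mouth pipette. Each monkey was collected on a day of its own, so monkey and day cannot be told apart. The cells entered 64 libraries, 4 for each monkey. All libraries use the same 96 cell barcodes by design.

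Of 6141 barcodes, 5908 cells with more than 800 genes and more than 10000 unique molecular identifiers (UMIs, the tags that count each captured molecule once) were used, 2957 from young and 2951 from old monkeys. Each monkey gave 338 to 381 cells and 20719761 to 34053080 macaque UMIs. A cell was named by the highest of GCG, INS, SST and PPY, which gave 4503 α-cells, 1219 β-cells, 112 δ-cells and 74 PP-cells. For each monkey with at least 5 cells of a type, the UMIs of those cells were added up gene by gene, which was possible for 16 monkeys in α- and β-cells, 11 in δ-cells and 6 in PP-cells. Levels are given as CPM, the UMIs of a gene per 1000000 macaque UMIs of such a sum. Cells were called clear-hormone cells where the hormone that named them had at least 4 times the UMIs of the next and at least 1% of all UMIs, with markers of other pancreatic cells at no more than 1%. This held for 93.2% of α-cells, but for only 31.5% of β-cells, 35.7% of δ-cells and 10.8% of PP-cells. The summed level of 6 α-cell markers, GCG among them, was 53720 CPM in β-cells of old and 63990 CPM in those of young monkeys, against 152600 and 156000 CPM in α-cells. It was 46460 and 64350 CPM in δ-cells, and in PP-cells 87650 and 76550 CPM, near the 97750 and 82030 CPM of their own markers. In all 4 types the acinar, ductal, stellate, endothelial and immune marker lists averaged at most 485.8 CPM each. Only 4 of 7 acinar markers were among the genes counted (PRSS1, CELA3A and CTRB1 were not). The acinar sum reached 2015 CPM in α-cells of a young monkey. Because a UMI stands for 1 molecule of any length, levels of different genes were compared without division by gene length. Fewer molecules per cell and a larger share of other transcripts cannot be told apart in these relative values.

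A new hormone precursor is threaded through the SEC61 channel, with SEC62 as a partner for some precursors, while the TRAP complex (SSR1 to SSR4) sits beside the channel and the signal peptidase, with SEC11A or SEC11C as its catalytic subunit, removes the signal peptide. Cargo then leaves the ER in vesicles whose COPII coat is started by the GTPase SAR1 and built of SEC23, SEC24, SEC13 and SEC31, at exit sites organised by SEC16. COPI-coated vesicles carry material backward, and p24 proteins, encoded by TMED genes, span the membrane of both kinds of vesicle as cargo receptors. Islet cells rely on this route because each secretes a peptide hormone in bulk.

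SSR4, the δ subunit of the TRAP complex, had the highest level of the 49 genes in all 4 cell types. It alone held 26.75% of their summed level in α-cells, 16.23% in β-cells, 18.13% in δ-cells and 22.7% in PP-cells. SEC11C and SEC62 took the next ranks, in this order in α-, β- and PP-cells and in the opposite order in δ-cells, and COPE, the ε subunit of the COPI coat, ranked 4 in each type. The 5 highest genes made up 53.1% of the summed level in α-cells, 50.2% in β-cells, 49.7% in δ-cells and 47.6% in PP-cells. At the other end, 12 genes lay below 10 CPM in α-cells and 10 in β-cells. Among these were the second copies COPZ2, SEC61A2 and SEC16B.

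Together the 49 genes reached 7308 ± 657 CPM in α-cells and 8255 ± 1357 CPM in β-cells (mean ± SD, n = 16 monkeys), with β-cells above α-cells of the same animal in 13 of 16 monkeys. The sum was 6353 ± 736 CPM in δ-cells (n = 11) and 6089 ± 889 CPM in PP-cells (n = 6). With each cell thinned to 10000 UMIs, the median cell held 69 of these UMIs in α-cells, 79 in β-cells, 61 in δ-cells and 59 in PP-cells, after 39 α-cells and 6 β-cells too shallow for this had been left out. The roles did not all follow the total. The translocon genes summed to 936 ± 88.1 CPM in α-cells and 1355 ± 197 CPM in β-cells, and were higher in β-cells of 15 of 16 monkeys. The signal peptidase genes summed to 749 ± 137 CPM in α-cells and 1287 ± 353 CPM in β-cells, again with β-cells higher in 15 monkeys. By contrast, the TRAP complex summed to 2280 ± 350 CPM in α-cells and 1879 ± 456 CPM in β-cells, where β-cells were higher in only 4 of 16 monkeys. For the SEC14-like genes the β-cell sum exceeded the α-cell sum in 1 of 16 monkeys, and for the COPI coat in 10. These sums are descriptions, given without a test.

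**Figure D1:**
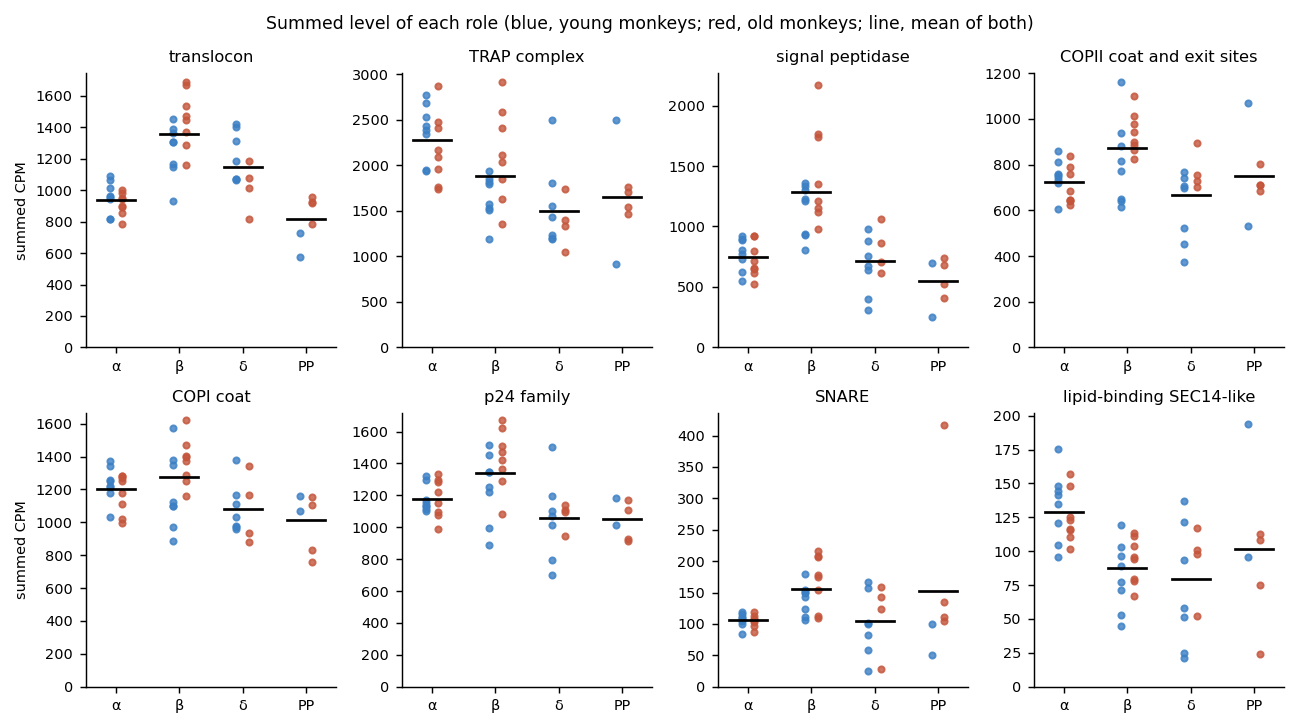
Summed level (CPM, axes from 0) of the genes of each role in α-, β-, δ- and PP-cells, 1 point per monkey, blue for young and red for old, with the mean of both ages as a line. Translocon and signal peptidase sums were higher in most β-cell points than in α-cells, while TRAP complex and SEC14-like sums were lower.

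The comparison of β-cells with α-cells asks which steps of the route differ between the main hormone-secreting types within the same animal. It was fitted with edgeR's quasi-likelihood test over all 4 types, with monkey as a block, and p-values were adjusted by Benjamini-Hochberg over 14648 genes. Of the 49 transport genes, 8 were higher in β-cells and 5 lower at an adjusted p under 0.05, or 26.5% of them. This share lay near the 25.7% of all genes that passed. Higher calls made up 7.54% and lower calls 18.1% of all genes tested. The median log2 fold change was 0.12 over the 49 genes and -0.20 over all genes tested, with 29 of the 49 positive. Among genes with an edgeR average log2 CPM of at least 5, the median over 4759 genes was 0.02 and 25.7% passed, and 11 of 32 transport genes passed there.

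At the translocon, SEC62 was the clearest difference. Its level in α-cells ran from 416.9 to 614.3 CPM with a median of 488.9 CPM, and in β-cells from 633.9 to 1095 CPM with a median of 740.5 CPM. No β-cell value overlapped with any α-cell value, and the level was higher in β-cells of 16 of 16 monkeys. The same held for SPCS2, SURF4, LMAN1, P4HB and DNAJC3 in the lists of partners and chaperones described below. How many of all genes are separated in this way was not counted. The log2 fold change was 0.65 (SE 0.11, edgeR adjusted p = 9.71e-06), a 1.57-fold difference. SEC61A1 and SEC61G, subunits of the channel itself, had log2 fold changes of 0.28 (SE 0.21) and 0.27 (SE 0.14) that did not pass the edgeR test (adjusted p = 0.358 and 0.176).

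Within the TRAP complex the subunits went opposite ways. SSR4 ran from 1437 to 2458 CPM in α-cells (median 1993 CPM) and from 806.2 to 2073 CPM in β-cells (median 1228 CPM). The ranges overlapped, but β-cells were lower in 15 of 16 monkeys, the exception being old male 3, with a log2 fold change of -0.61 (SE 0.11, edgeR adjusted p = 1.24e-05). SSR3, the γ subunit, ran from 45.0 to 122 CPM in α-cells (median 87.32 CPM) and from 48.52 to 324.8 CPM in β-cells (median 173.1 CPM), where 13 β-cell values lay above every α-cell value. Its log2 fold change was 1.01 (SE 0.26, edgeR adjusted p = 0.00216). SSR1, the α subunit, ran from 115.6 to 177.1 CPM in α-cells (median 140.4 CPM) and from 113.8 to 369.5 CPM in β-cells (median 240.7 CPM), with 13 β-cell values above and 1 below every α-cell value. It was 1.65-fold higher in β-cells (log2 0.73, SE 0.17, edgeR adjusted p = 0.00111). SSR2, the β subunit, had a log2 fold change of 0.18 (SE 0.20, edgeR adjusted p = 0.56).

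The balance among the transcripts of the complex differed between α- and β-cells of every animal. SSR4 made up 85.47% ± 2.776 of the complex's UMIs in α-cells (range 81.62% to 90.79%) and 70.93% ± 6.663 in β-cells (range 59.33% to 86.42%), and was lower in β-cells of 16 of 16 monkeys. In δ-cells it made up 76.27% ± 7.074, lower than in α-cells in 11 of 11 monkeys. PP-cells, at 83.22% ± 7.099, were lower than α-cells in 3 of 6 monkeys. This share was chosen after the levels had been seen and is given without a test.

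SEC11C, one of the catalytic subunits of the signal peptidase, ran from 427.1 to 786.6 CPM in α-cells (median 625.8 CPM) and from 690.8 to 2000 CPM in β-cells (median 1066 CPM). The ranges met only at their edges, with 14 β-cell values above every α-cell value and β-cells higher in 15 of 16 monkeys. Its log2 fold change of 0.80 (SE 0.12, edgeR adjusted p = 2.72e-07) had the lowest adjusted p of the 49 genes. The alternative catalytic subunit SEC11A, at 115.5 ± 21.2 CPM in α-cells and 142.7 ± 43.9 CPM in β-cells, did not pass the edgeR test (log2 fold change 0.25, SE 0.23, adjusted p = 0.475).

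Among coat genes few differences passed. In the COPI coat, COPB1, the β subunit of the coatomer, was higher in β-cells. It ran from 85.02 to 172.2 CPM in α-cells (median 129.8 CPM) and from 116.8 to 263.2 CPM in β-cells (median 185.2 CPM), with 13 β-cell values above every α-cell value. The log2 fold change was 0.52 (SE 0.18, edgeR adjusted p = 0.0304). The call was lost without old female 2 (log2 0.48, edgeR adjusted p = 0.0509) or old female 3 (log2 0.48, edgeR adjusted p = 0.0584). COPE, the most abundant coat gene, was at 458.1 ± 66.3 CPM in α-cells and 433.6 ± 86.1 CPM in β-cells and did not pass (log2 fold change -0.11, SE 0.14, edgeR adjusted p = 0.617). COPA, the α subunit, was counted 1.424 ± 0.306 times per COPB1 UMI in α-cells and 0.8907 ± 0.231 times in β-cells, lower in β-cells of 16 of 16 monkeys. This ratio too was chosen after the levels had been seen. Within the COPII coat only SEC16B passed, a rare exit site scaffold with 682 UMIs over all α-cells and 127 over all β-cells tested. It was at 2.12 ± 1.26 CPM in α-cells and 0.784 ± 1.07 CPM in β-cells (log2 fold change -1.998, SE 0.63, edgeR adjusted p = 0.0141). The ranges overlapped, and β-cells of 10 of 16 monkeys held a UMI of SEC16B at all.

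Of the p24 family, TMED2 and TMED10 were higher in β-cells and TMED3 lower. TMED2 ran from 138.5 to 289.2 CPM in α-cells (median 198.8 CPM) and from 137.1 to 522.7 CPM in β-cells (median 330 CPM). It was higher in β-cells of 15 of 16 monkeys, with a log2 fold change of 0.62 (SE 0.15, edgeR adjusted p = 0.00124). TMED10, which pairs with TMED2 in p24 complexes, ran from 141.6 to 203.2 CPM in α-cells (median 172.6 CPM) and from 111.6 to 381.4 CPM in β-cells (median 274.6 CPM). In 14 of 16 monkeys it was higher in β-cells (log2 fold change 0.55, SE 0.15, edgeR adjusted p = 0.00394). TMED3 ran from 163.2 to 371.4 CPM in α-cells (median 245.1 CPM) and from 104.4 to 262.7 CPM in β-cells (median 177.6 CPM). It was lower in β-cells of 13 of 16 monkeys, and its log2 fold change of -0.46 (SE 0.17) had an edgeR adjusted p of 0.0418. The call on TMED3 was lost when any of 8 monkeys was left out (old female 2 or 4, old male 1 or 4, young female 1, 3 or 4, or young male 2), with log2 fold changes of -0.38 to -0.49 over all 16 omissions and edgeR adjusted p-values up to 0.101. Per TMED2 UMI, 1.221 ± 0.407 TMED3 UMIs were counted in α-cells and 0.5732 ± 0.169 in β-cells, lower in 16 of 16 monkeys. Chosen after the levels had been seen, this ratio sets a gene called lower over one called higher. It is therefore no separate support for the call on TMED3. TMED4, the most abundant p24 gene, was at 297.4 ± 28.1 CPM in α-cells and 279.4 ± 52.4 CPM in β-cells (log2 fold change -0.16, SE 0.15, edgeR adjusted p = 0.482).

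SEC22B, a SNARE that helps vesicles fuse between ER and Golgi, ran from 72.29 to 107.8 CPM in α-cells (median 97.23 CPM) and from 101.8 to 205.4 CPM in β-cells (median 142.9 CPM). In 15 of 16 monkeys it was higher in β-cells (log2 fold change 0.54, SE 0.20, edgeR adjusted p = 0.0424). Its call was lost without any one of 7 monkeys (old female 4, old male 1, 3 or 4, young female 1 or 2, or young male 1), with edgeR adjusted p-values up to 0.0647 and log2 fold changes of 0.52 to 0.58. Among the SEC14-like genes, SEC14L1 was at 118.3 ± 21.1 CPM in α-cells and 76.5 ± 24.8 CPM in β-cells (log2 fold change -0.70, SE 0.21, edgeR adjusted p = 0.00853), lower in 14 of 16 monkeys. SEC14L4 was lower in β-cells of 15 of 16 monkeys, with 849 UMIs over the α-cells and 24 over the β-cells tested, or 2.55 ± 1.5 CPM and 0.210 ± 0.239 CPM (log2 fold change -3.48, SE 0.62, edgeR adjusted p = 1.91e-05). In young male 3 it was higher in β-cells, where it rested on 1 UMI, than in α-cells.

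**Figure D2:**
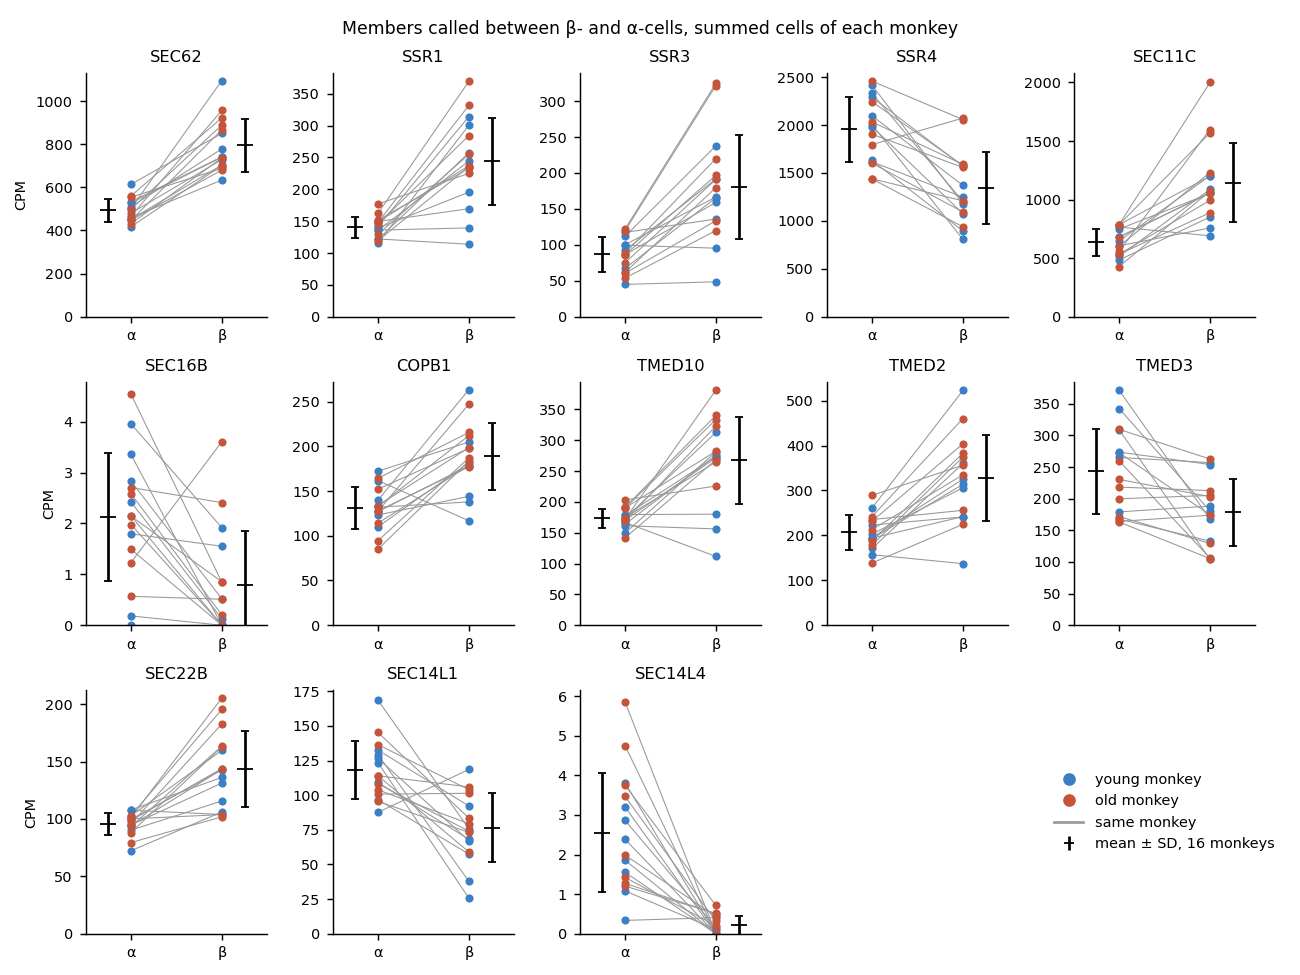
Level (CPM, axes from 0) of the 13 genes that passed the test between β- and α-cells, with the summed cells of a monkey as 1 point, young in blue and old in red, lines joining the same monkey, and mean ± SD of 16 monkeys at the sides (the SD bar of SEC16B in β-cells is cut at 0). SEC62 is the only panel in which the values of the types do not overlap, and SSR4, SEC16B, TMED3, SEC14L1 and SEC14L4 run downward from α- to β-cells.

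**Figure D3:**
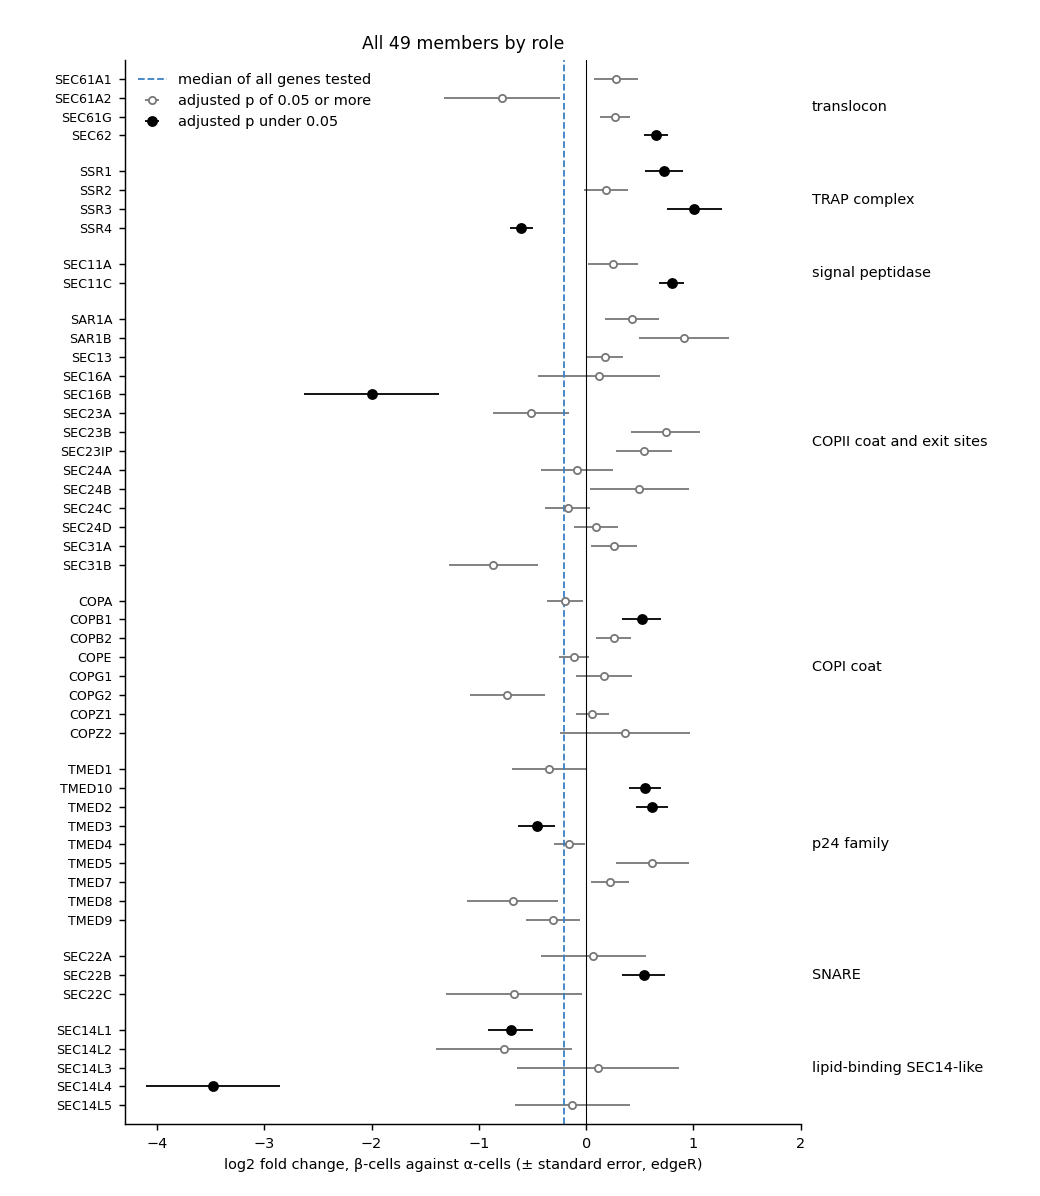
Log2 fold change of β-cells against α-cells (edgeR, bars ± standard error) for each of the 49 genes, grouped by role, filled where the adjusted p was under 0.05, with the median of all genes tested as a dashed line at -0.20. Opposite signs stand side by side in the TRAP complex and the p24 family, where SSR4 and TMED3 lie left of 0 and SSR1, SSR3, TMED2 and TMED10 right of it.

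The number of calls differed between fits. With α- and β-cells alone in the fit, an alternative chosen after the data had been seen, 24 of the 49 genes passed, 14 higher and 10 lower, and the 13 above were all among them, while 43% of all genes passed in this fit. With at least 20 cells per monkey and type the count was 23, beside 40.2% of all genes. In the fit of α- and β-cells alone the added genes included SEC23B (log2 fold change 0.72, SE 0.14, edgeR adjusted p = 0.000169), TMED5 (log2 fold change 0.62, SE 0.11, edgeR adjusted p = 7.12e-05), SEC31B (log2 fold change -0.96, SE 0.20, edgeR adjusted p = 0.000306) and SEC23A (log2 fold change -0.55, SE 0.19, edgeR adjusted p = 0.0172). Among clear-hormone cells alone, 13 of the 49 passed, 6 higher and 7 lower, beside 22.7% of all genes, and 9 of these were among the 13 from all cells. SEC62 (log2 0.66), SEC11C (0.80), SSR3 (1.01), SSR1 (0.68) and SSR4 (-0.62) passed there with log2 fold changes close to those in all cells, and COPB1 (0.49), SEC22B (0.52), TMED10 (0.48) and SEC14L1 (-0.56) also kept fold changes near their earlier size but no longer passed (edgeR adjusted p = 0.0697, 0.0924, 0.0591 and 0.0988). The part of α-cell RNA in the β-cell values was not tested beyond this.

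Several steps of the route are encoded by paralogue pairs, and the share of the first gene in the UMIs of its pair was compared between β- and α-cells of the same monkey by a two-sided exact sign-flip permutation test, adjusted over 10 pairs. Reads were counted only where they mapped uniquely, so the shares are uncertain where 2 copies are nearly identical. For 6 pairs the adjusted p was under 0.05. SEC23A, a COPII inner coat subunit, made up 31.44% ± 3.826 of the SEC23 UMIs in α-cells and 17.06% ± 8.281 in β-cells, and was lower in 16 of 16 monkeys (exact p = 3.052e-05, the smallest that 16 monkeys can give, adjusted p = 0.0001526). SEC31A, of the outer coat, made up 84.83% ± 3.959 in α-cells and 92.63% ± 3.496 in β-cells, higher in 16 of 16 monkeys with the same p-values. In both pairs the more abundant copy, SEC23B or SEC31A, thus held a larger share in β-cells than in α-cells of every animal.

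The other 4 pairs showed weaker agreement among monkeys. SEC11A took 15.48% ± 1.720 of the signal peptidase catalytic subunit UMIs in α-cells and 11.41% ± 3.689 in β-cells, lower in 14 of 16 monkeys (exact permutation, adjusted p = 0.001628). SEC16A took 62.02% ± 14.37 in α-cells and 86.96% ± 13.80 in β-cells of the 12 monkeys with at least 20 UMIs of the pair in both types, higher in 11 of them (exact permutation, adjusted p = 0.01343). SEC61A1 stayed above 90% of its pair in both types, with 94.91% ± 2.262 in α-cells and 96.72% ± 2.208 in β-cells (exact permutation, adjusted p = 0.02393). COPG1, a γ subunit of the coatomer, took 72.39% ± 4.715 in α-cells and 80.69% ± 11.35 in β-cells (exact permutation, adjusted p = 0.02838). For SAR1A/SAR1B, SEC24A/SEC24B, SEC24C/SEC24D and COPZ1/COPZ2 the adjusted p lay between 0.1064 and 0.1202 in the exact permutation test, and COPZ1 held over 96% of its pair in each of the 32 samples. With clear-hormone cells alone 4 pairs passed, and with thinned cells 5.

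**Figure D4:**
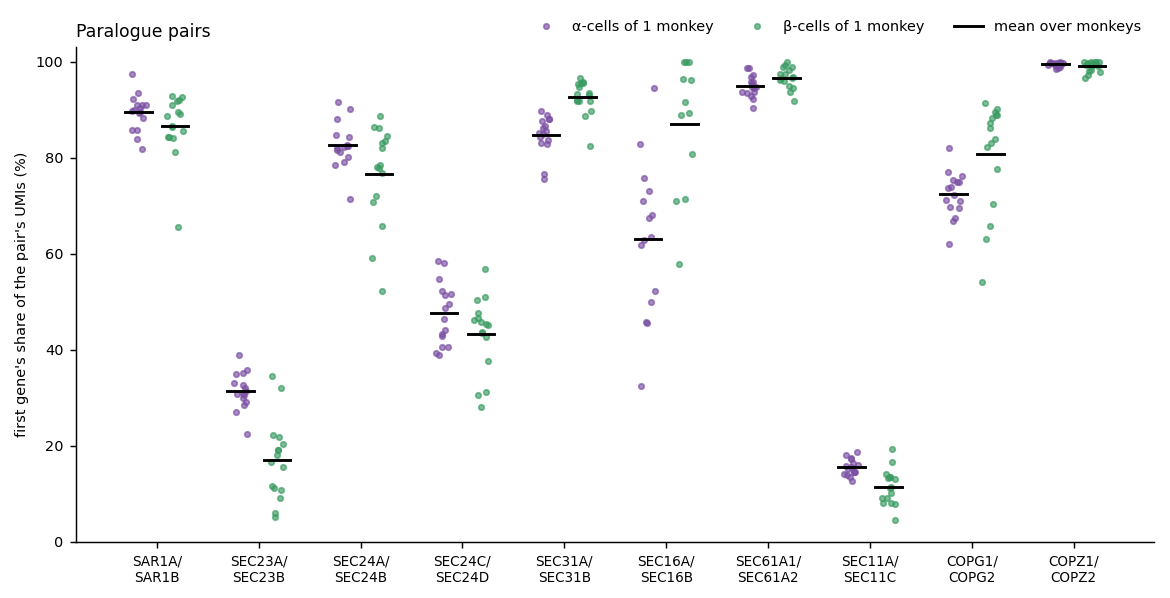
Share (percent of the UMIs of the pair) of the first gene of each of 10 paralogue pairs, with α-cells of a monkey in purple, β-cells in green and the mean over monkeys as a line. SEC23A has a lower and SEC31A a higher share in β-cells, while COPZ1 and SEC61A1 hold nearly all UMIs of their pairs in both types.

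Partners of these genes were counted from lists of the same machinery, to be read beside the 7.54% of all genes that passed as higher in β-cells, the 18.1% as lower, and the median of -0.20. Among the 4759 genes with an average log2 CPM of at least 5, the median was 0.02 and 25.7% passed. Of 22 translocon partners tested (signal recognition particle and receptor, oligosaccharyltransferase, signal peptidase accessory subunits), 11 were higher in β-cells and 0 lower in the edgeR test, with a median log2 fold change of 0.45. The signal peptidase partners SPCS2 (log2 fold change 1.10, SE 0.13, edgeR adjusted p = 1.04e-09) and SPCS3 (log2 fold change 1.02, SE 0.20, edgeR adjusted p = 0.000102) were both higher in β-cells, as SEC11C was. Of 35 partners at the ER-Golgi interface, 5 were higher and 0 lower, with a median of 0.22, so that their share called, 14.3%, lay below the 25.7% of all genes. They included the cargo receptors SURF4 (log2 fold change 1.16, SE 0.14, edgeR adjusted p = 2.88e-09) and LMAN1 (log2 fold change 1.19, SE 0.19, edgeR adjusted p = 1.45e-06). Of 22 ER chaperones and genes of the unfolded protein response, 9 were higher, among them the disulphide isomerase P4HB (log2 fold change 0.98, SE 0.13, edgeR adjusted p = 6.27e-08), and the calcium-binding chaperone CALR was lower (log2 fold change -0.40, SE 0.14, edgeR adjusted p = 0.0286).

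In δ-cells, compared with the mean of α- and β-cells in the same edgeR fit, 16 of the 49 genes passed and all were lower, while 18.2% of all genes passed and 14.4% passed as lower. The median log2 fold change was -0.56 over the 49 genes against -0.48 over all genes tested, but among the 4759 genes with an average log2 CPM of at least 5 it was -0.26, with 23.6% passing, against 12 of 32 transport genes there. The scaling moved the median over all genes: with DESeq2 size factors it was 0.01, and 10 of the 49 passed, 3 higher and 7 lower (18.2% of all genes). Without TMM it was -0.32, with 8 passing (14.6% of all genes). With clear-hormone cells alone, which left at most 40 δ-cells over all monkeys, 5 of the 49 passed, beside 6.73% of all genes. δ-cells had a median of 43776 UMIs per cell against 64894 in α-cells and 74425 in β-cells, and no monkey had 20 of them. TMED9, a p24 protein, stood well below that median. It was at 20.3 ± 14.8 CPM in δ-cells against 54.1 ± 14.0 CPM in α-cells and 47.5 ± 22.2 CPM in β-cells and was lower than both in 11 of 11 monkeys (log2 fold change -1.54, SE 0.31, edgeR adjusted p = 0.000268, or -1.06 relative to the median).

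SEC61A1, the channel-forming subunit, was at 69.2 ± 63.9 CPM in δ-cells (log2 fold change -0.97, SE 0.24, edgeR adjusted p = 0.0032), and it passed under each of 7 alternatives and with each monkey left out. SEC11C, at 552.9 ± 149 CPM, lay below β-cells in 11 of 11 monkeys and below α-cells in 8 (log2 fold change -0.79, SE 0.13, edgeR adjusted p = 4.33e-06). SSR4, at 1152 ± 382 CPM, lay below α-cells in 11 of 11 monkeys and below β-cells in 8 (log2 fold change -0.66, SE 0.11, edgeR adjusted p = 2.43e-05). TMED3 had a log2 fold change of -0.73 and SEC61G of -0.61. With clear-hormone cells alone, at most 40 of them δ-cells, the value of TMED3 turned to 0.49 and that of TMED10 to 0.15. TMED10 was a call at -0.54 in all cells, and neither gene passed among clear-hormone cells. The other calls were SEC24A (-1.30), SEC14L1 (-0.70), SEC24D (-0.66), SEC13 (-0.56), TMED7 (-0.55), TMED10 (-0.54), COPE (-0.47), SEC16A, SAR1B and SEC14L3 on the log2 scale. The last 3 had 3, 18 and 0 UMIs in all δ-cells tested, so no fold is given for them. SAR1B and TMED7 passed in none of the 7 alternatives. SEC11C, SSR4, TMED9, SEC61A1, SEC61G, TMED3 and SEC14L3 passed with each monkey left out, while the other 9 lost the call without at least 1 of the monkeys, and the count ran from 10, without young female 4 or young male 2, to 18, without young male 3.

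SEC62 departed from this pattern. At 796 ± 220 CPM in δ-cells (range 489.9 to 1191 CPM) it lay above α-cells in 11 of 11 monkeys and above β-cells in 5 of 11, and its log2 fold change against the mean of both types was 0.11 (SE 0.12), or 0.58 relative to the median of all genes. PP-cells, at 452.3 ± 156 CPM, were below β-cells in 6 of 6 monkeys and below α-cells in 4. By level the order was thus δ- and β-cells, which lay within 2 CPM of each other in the mean, then α-cells and PP-cells, which differed by less than the SD over PP-cell samples.

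In PP-cells 3 of the 49 genes passed against the mean of α- and β-cells, all lower, where 9.09% of all genes passed and 6.05% as lower. SEC11C was at 474.9 ± 154 CPM (log2 fold change -0.93, SE 0.17, edgeR adjusted p = 0.000168) and SSR1 at 108.9 ± 57.8 CPM (log2 fold change -0.95, SE 0.26, edgeR adjusted p = 0.0171). Both lay below β-cells in 6 of 6 monkeys and below α-cells in 5. SSR1 did not pass without young male 4 (log2 fold change -0.69, edgeR adjusted p = 0.101), which left 1 call of the 49. The counts were 5 without old female 2, 5 without old male 4 and 1 to 4 without any other monkey. SAR1B also passed (edgeR adjusted p = 0.0399), with 6 UMIs in all, every one from old female 2, but not without any of old female 1, old male 2, old male 4, young male 1 or young male 4 (edgeR adjusted p up to 0.108). The next smallest p-values belonged to COPB2 (log2 fold change -0.69, SE 0.24, edgeR adjusted p = 0.0638) and SEC61A1 (log2 fold change -0.88, SE 0.31, edgeR adjusted p = 0.0667). The median of the 49 genes was -0.42 against -0.40 over all genes, which became 0.08 with DESeq2 size factors, under which the same 3 genes passed, beside 12.9% of all genes.

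The comparison of old with young monkeys asks whether this machinery changes with age. In β-cells, with sex as a covariate, 46 of the 49 genes were tested and 0 passed in edgeR, where 0.045% of all 11101 genes passed. With DESeq2 also 0 passed, and 5 had an unadjusted edgeR p under 0.05, as did 5.52% of all genes. The fold changes leaned upward, with 37 of 46 positive and a median log2 fold change of 0.24 against 0.01 over all genes tested. The summed level of the 49 genes was 7510 ± 1040 CPM in young β-cells (range 5545 to 8538 CPM) and 9001 ± 1263 CPM in old ones (range 7279 to 10680 CPM), so the groups overlapped. All 4 translocon and all 4 TRAP genes had positive values, with medians of 0.29 and 0.35. β-cells of old monkeys were also deeper, with a median of 81435 UMIs per cell against 64782.5, and had less spike-in RNA, 4.01% against 5.20%. The part of this in the lean was not tested.

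SEC23B, the SEC23 paralogue that dominates in both types, had the smallest p in β-cells. It ran from 41.91 to 141.9 CPM in young β-cells (median 82.68 CPM) and from 105.3 to 160 CPM in old ones (median 147 CPM), with 5 of 8 old values above every young value. The log2 fold change of 0.76 (SE 0.23) did not pass (edgeR unadjusted p = 0.00298, adjusted p = 0.49). In α-cells the same gene was at 64.3 ± 10.5 CPM in young and 63.2 ± 12.6 CPM in old monkeys.

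The other β-cell genes with small p-values were abundant SEC11C, at 987.5 ± 197 CPM in young and 1301 ± 384 CPM in old monkeys (log2 fold change 0.39, SE 0.19, edgeR adjusted p = 0.902), and 3 genes of lower level. SEC16A, a scaffold of ER exit sites, was at 2.91 ± 3.14 and 7.51 ± 3.08 CPM (log2 fold change 1.51, SE 0.66, edgeR adjusted p = 0.887), TMED5 at 63.0 ± 29.0 and 90.7 ± 30.5 CPM (log2 0.55, adjusted p = 0.903), and COPG1 at 66.3 ± 27.8 and 93.5 ± 36.1 CPM (log2 0.49, adjusted p = 0.903). In each of them the groups overlapped. SEC62, by contrast, was at 783.3 ± 140 CPM in young and 805.2 ± 115 CPM in old β-cells.

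In α-cells 0 of the 49 genes passed, as did 0% of all 13486 genes tested in edgeR, and DESeq2 also called 0 of the 49. A single gene, TMED8, had an unadjusted p under 0.05, as did 6.82% of all genes. Here 19 values were positive and 30 negative, with a median log2 fold change of -0.07 against 0.00 over all genes. The summed level was 7508 ± 624 CPM in young and 7109 ± 667 CPM in old α-cells. TMED8 ran from 6.46 to 23.8 CPM in young and from 15.6 to 43.3 CPM in old α-cells (log2 fold change 0.64, SE 0.25, edgeR adjusted p = 0.71), with 5 of 8 old values above every young value. The next smallest p-values belonged to SEC23A (log2 -0.24), SEC14L3 (-1.57), SEC23IP (-0.35) and TMED1 (0.23), all with edgeR adjusted p-values of 0.732 or more.

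**Figure D5:**
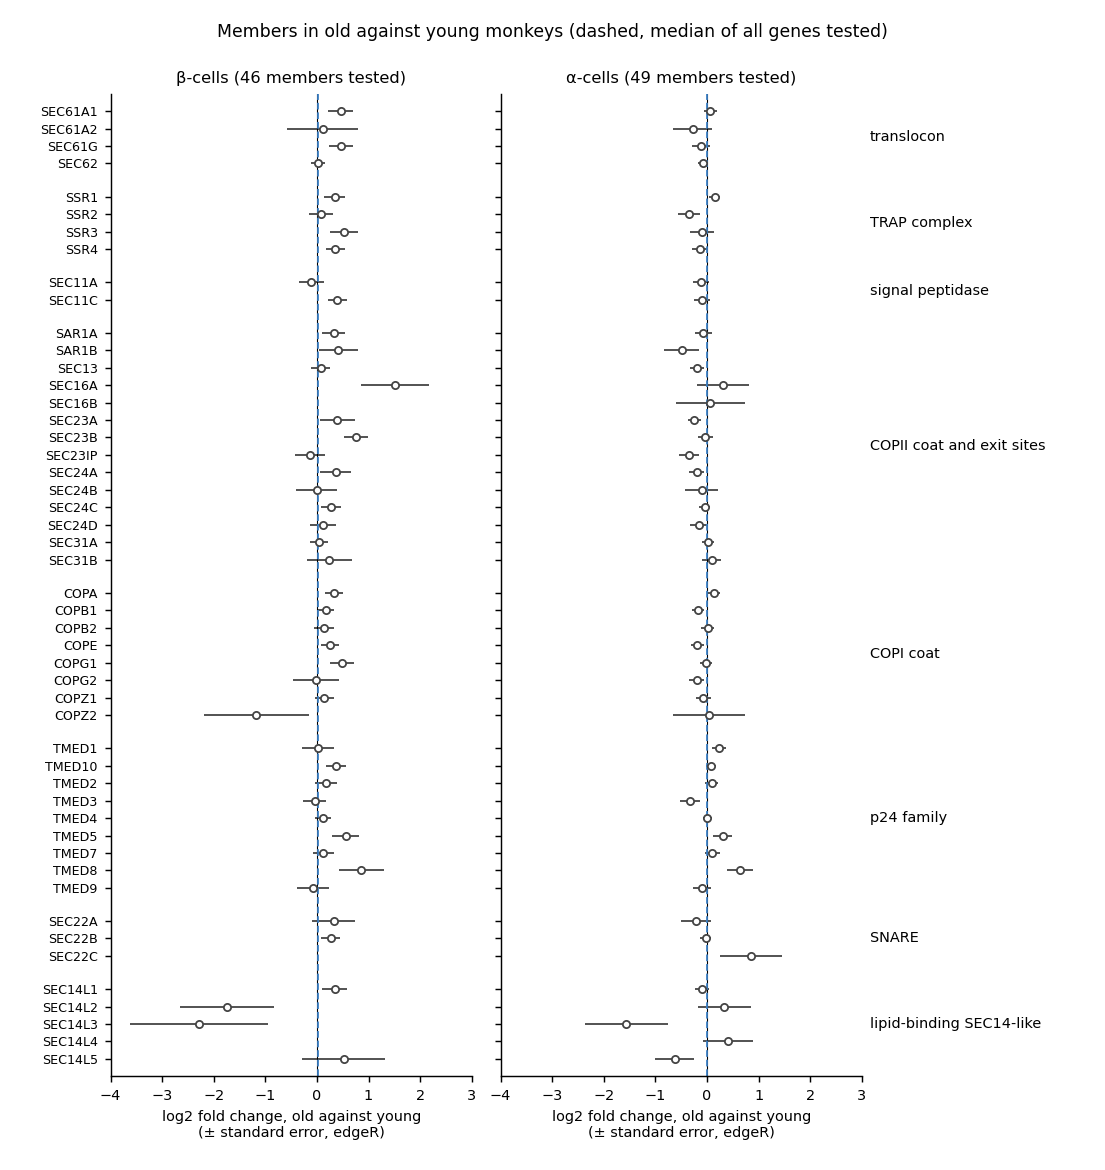
Log2 fold change of old against young monkeys (edgeR, bars ± standard error) for the transport genes in β-cells at left and α-cells at right, with the median of all genes tested as a dashed line. No gene passed the test, and 37 of 46 values lie right of 0 in β-cells against 19 of 49 in α-cells.

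Whether the age difference itself differed between β- and α-cells was tested by an interaction with monkey as a block, over 15441 genes. Again 0 of 49 genes passed in edgeR and in DESeq2, as did 0% of all genes, while 9 had an unadjusted p under 0.05, as did 5.96% of all genes. The fold change between the ages was larger in β- than in α-cells for 41 of the 49 genes, with a median difference of 0.33 on the log2 scale against 0.05 over all genes. SEC23B had the smallest p (difference 0.88, SE 0.22, edgeR unadjusted p = 0.000531, adjusted p = 0.585). It was followed by SSR4 (0.51), SSR3 (0.66), SEC11C (0.49) and SEC61G (0.60), with edgeR adjusted p-values of 0.662 to 0.666. SSR4 was at 1168 ± 246 CPM in young and 1512 ± 418 CPM in old β-cells, and at 2045 ± 303 and 1864 ± 371 CPM in α-cells, so its means drew closer in old monkeys while the groups overlapped.

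The sexes gave no called difference in the age effect. In β-cells 0 of 46 genes passed this test in edgeR (0% of 11693 genes) and in DESeq2, with 3 at an unadjusted p under 0.05 (4.23% of all genes), and in α-cells 0 of 49 passed in both tools (0.00707% of 14146 genes in edgeR) with 1 such gene (5.61% of all genes). The fold changes of old against young β-cells were positive for 39 of 46 genes in males and 32 of 46 in females, with medians of 0.32 and 0.14. The smallest p in β-cells belonged to SEC14L3 (log2 difference 5.64), which had 0 UMIs in β-cells of 3 of 4 old females and turned to -1.13 with clear-hormone cells alone, followed by COPG2 (-2.01), SAR1A (0.92), SEC22B (0.68) and SEC11C (0.69), all with an edgeR adjusted p of 1. In α-cells it was COPZ1 (log2 difference 0.59, edgeR adjusted p = 0.877), followed by COPB1 (0.42), COPG1 (0.39), SSR2 (0.71) and SEC61A2 (1.23).

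In δ-cells (7 young and 4 old monkeys) 0 of 37 genes tested passed between the ages, as did 0% of 7405 genes. DESeq2 also called 0, and 1 gene had an unadjusted edgeR p under 0.05, as did 3.9% of all genes. This was SEC31A, at 123.3, 19.66, 97.34 and 220.9 CPM in young females 1 to 4, 87.27, 80.31 and 21.34 CPM in young males 1 to 3, 253.3 and 193.5 CPM in old females 1 and 2, and 299 and 317.4 CPM in old males 2 and 4. Only young female 4 reached the range of the old samples (log2 fold change 1.63, SE 0.55, edgeR adjusted p = 1). TMED10 (0.80), TMED3 (-0.83), SEC61A1 (1.26) and SSR1 (0.67) followed on the log2 scale, also with an adjusted p of 1, and SEC61A1 turned to -0.64 once the deepest cells, those past the 95th percentile, were dropped. In PP-cells (2 young males against 2 old females and 2 old males, without a sex term, so that sex and age are partly mixed) 0 of 37 genes passed in edgeR and DESeq2, against 0.0152% of 6568 genes in edgeR, with 1 at an unadjusted p under 0.05 (4.74% of all genes). This was SEC31B, at 13.45 and 2.13 CPM in young and 86.3, 15.3, 120 and 22.8 CPM in old samples (log2 fold change 3.01, SE 1.45, edgeR adjusted p = 0.997). COPZ1 (-1.03), TMED9 (-1.50), TMED4 (1.10) and SEC22B (1.21) came next.

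The paralogue shares were compared between the ages as well, in α- and in β-cells, and 0 of 20 comparisons passed in the exact permutation test (smallest p = 0.03714, for SEC11A/SEC11C in β-cells, adjusted p = 0.634). SEC23A held 19.33% ± 10.03 of its pair in young and 14.79% ± 5.882 in old β-cells. Among the partner lists, 20 of 22 chaperones had positive fold changes in old β-cells, with a median of 0.51, and 0 passed in edgeR, with 10 at an unadjusted edgeR p under 0.05, beside 5.52% of all genes. This list holds genes that the study reported as upregulated in old β-cells of these same monkeys, such as HSP90B1, HYOU1 and PDIA4. The upward lean of the list is therefore not independent of that report. The smallest p belonged to SDF2L1, an ER protein that works with the chaperone HSPA5 (log2 fold change 1.503, SE 0.39, edgeR adjusted p = 0.302).

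Within a monkey, cells with more of the transport genes' UMIs tended to hold fewer of their own hormone, with a median Spearman rho of -0.37 over 16 monkeys in α-cells (175 to 361 cells each) and -0.33 over 15 monkeys in β-cells (22 to 194 cells each). Both measures come from the same cell thinned to 10000 UMIs, so a larger hormone share leaves fewer UMIs for every other gene. With the chaperone list the median rho was 0.19 in α-cells and 0.33 in β-cells, and with the total UMIs of the cell before thinning 0.42 and 0.35. These are descriptions of cells that share a library, with no test.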

How the data were processed

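Cells were sequenced by a modified STRT protocol. The authors, per the study's methods, removed primer, poly(A) and low-quality sequence, mapped reads to Macaca_fascicularis_5.0 (TopHat2 2.0.12 and CASAVA 1.8 in the submitters' processing notes), counted uniquely mapped reads per gene with htseq-count and collapsed equal UMIs, and deposited raw UMI counts per gene and cell of all picked cells, with 95 spike-in RNAs in the same columns. Age and sex of each animal come from the series' own key of individuals. The genes and lists were chosen with earlier results of these data known. Spike-ins were left out of totals, and the study's filter on mapping rate was not applied.

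Counts were summed per monkey and cell type (at least 5 cells) and tested with edgeR 4.0.16 (quasi-likelihood, TMM, filterByExpr, Benjamini-Hochberg adjustment over all genes tested, threshold 0.05) in R 4.3.3, with limma 3.58.1. DESeq2 1.42.0 was an alternative. Shares were tested with scipy 1.17.1 under Python 3.11.15, using pandas 2.3.3 and numpy 2.4.6. The edgeR test was tried on simulated counts for part of the fits. Genes named in the text are all that passed a test, or else the 5 with the smallest p, and the most abundant of each role; the genes named from the fit of α- and β-cells alone, and the partner genes, were picked after their values were seen. The alternatives were library sizes in place of TMM, no filter, clear-hormone cells, thinning to 10000 UMIs, at least 20 cells, no sex term, with or without a replicate block, each monkey left out, and, added later, leaving out each monkey for δ- and PP-cells, leaving out cells above the 95th percentile of UMIs, and a fit of α- and β-cells alone. Doublets were not called. The same replicate number marks different animals in each group, and the correlations of same-numbered monkeys' deviations ran from -0.075 to 0.134, so the numbers do not pair them. No genome of the files' build was used, so no position or sequence is given.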

Additional observations from a re-analysis of the deposited data

Results flagged for a closer look

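In 176 groups of monkeys of 1 age, in α- or β-cells, covering the levels of 25 of the genes, 9 summed levels (the 8 roles and all genes) and the 10 paralogue shares, 11 groups held a monkey whose gap to the nearest of the others was large for the range of the group. Each group held 8 monkeys, save SEC16A/SEC16B with 7 young in α-cells and 4 in β-cells. Chance alone gives about 1 in 20 such groups.

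For levels in CPM, all 4 were highest values in β-cells. COPG1 was at 174 in old male 4, against 61.03 to 103.9 in the other old monkeys. SEC31A was at 329 in young male 4, against 146.9 to 218.6, and SEC62 at 1095 in young male 3, against 633.9 to 849.7 in the other young monkeys. SEC14L4 was at 0.408 in young male 3, against 0 to 0.1551.

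For paralogue shares, SAR1A held 65.6% of its pair in old female 3 β-cells (others 85.55% to 92.93%), and COPG1 63.0% in old female 1 β-cells (83.97% to 89.58%). SEC31A was low in both types of old male 4, with 75.6% in α-cells (82.97% to 88.98%) and 82.5% in β-cells (91.74% to 96.65%). SEC24A held 91.7% in young male 3 α-cells (78.46% to 84.65%). COPZ1 held 98.6% in young male 2 α-cells (99.37% to 99.87%) and 97.8% in old male 1 β-cells (99.12% to 100%).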

How the results depend on the processing

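Between β- and α-cells 11 to 17 of the 49 genes passed under 7 of the other settings and 11 to 13 with each monkey left out, but 23 passed with at least 20 cells and 24 with α- and β-cells alone. The δ-cell count of 16 fell to 10 with DESeq2, 8 with library sizes, 10 without a filter and 5 with clear-hormone cells, and ran from 10 to 18 with each monkey left out. The PP-cell count of 3 became 7 with library sizes, 5 after thinning, 5 with no replicate block and 1 without cells above the 95th percentile, and ran from 1 to 5 with each monkey left out. All age counts stayed at 0 in each alternative run, the replicate block (0 in α- and β-cells) and the left-out monkeys included. Without the block 12 genes passed in β- against α-cells and 13 in δ-cells. The share of all genes that passed also moved with the setting. Between β- and α-cells it was 25.7% in the main fit, 40.2% with at least 20 cells, 22.7% with clear-hormone cells and 43% with α- and β-cells alone. For δ-cells it was 18.2% in the main fit, 18.2% with DESeq2, 14.6% with library sizes and 6.73% with clear-hormone cells. For PP-cells it was 9.09% in the main fit and 12.9% with DESeq2. A count given without that share, here or above, is therefore not read as a change in these genes. With clear-hormone cells the δ-cell log2 fold changes of TMED3 and TMED10 turned to 0.49 and 0.15 and the age by sex value of SEC14L3 in β-cells to -1.13, and without cells above the 95th percentile the age value of SEC61A1 in δ-cells turned to -0.64. The causes were not tested. Of the single-gene values under an alternative, 1383 kept direction and side of the threshold, 140 lost it, 4 newly passed and 4 reversed. The clear-hormone alternative could not be run for PP-cells or for age in δ-cells, with too few cells. The 5 to 14 δ-cells per monkey limit what could be seen there.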
